A study of Mus musculus with 3 samples.

Results

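The myeloid C-type lectin receptors described here are the products of 8 mouse genes, Clec4d, Clec4e, Clec4n, Clec4a2, Clec5a, Clec7a, Clec12a and Clec2d, taken by symbol from a count table of 19723 genes. All 8 were found in that table and all 8 passed the filter for low values, with at least 8.50 CPM (counts of a gene per 1e6 counts of its library, after scaling) in every library. RNA was sequenced from sorted cells of BALB/c females, 6 to 8 weeks old, with 1 library per group and no replicates. The first group was myeloid-derived suppressor cells (MDSCs, immature myeloid cells that restrain T cells) pooled from 20 tumours of mice treated with alisertib, an inhibitor of the mitotic kinase Aurora A. In the second group, MDSCs were pooled from 20 tumours of control mice, which the labels describe both as untreated and as control treated, so that a vehicle cannot be assumed. The remaining group was neutrophils from pooled bone marrow of 5 wild-type animals. Cells were sorted to a purity above 90%, and neither the surface markers of the sort, the tumour line nor the dose is given in the labels. The tumour groups therefore differ from the bone marrow group in tissue, in tumour bearing and in sort, and these cannot be told apart.

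C-type lectin receptors are cell-surface proteins through which myeloid cells recognise sugars, glycolipids and material of dying cells. The products of Clec4e (Mincle), Clec4d (MCL) and Clec4n (Dectin-2) signal through the Fc receptor gamma chain encoded by Fcer1g, that of Clec5a (MDL-1) through the adaptors encoded by Tyrobp and Hcst, and that of Clec7a (Dectin-1, a receptor for beta-glucan) through a tyrosine motif of its own. Most of this signalling runs through the kinase Syk, which acts through the Card9, Bcl10 and Malt1 complex on NF-kappaB and on cytokine genes. Clec4a2 (DCIR) and Clec12a (MICL) instead carry inhibitory tyrosine motifs that recruit phosphatases such as the product of Ptpn6. The product of Clec2d (Clr-b) is a ligand, and is recognised by the inhibitory natural killer receptor encoded by Klrb1b.

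The libraries held 19373087 (alisertib MDSC), 21959748 (control MDSC) and 21987097 (bone marrow) counts. Genes that mark neutrophils were present in all 3. The 11 markers summed to 14922.6 CPM in alisertib MDSCs, 34355.5 CPM in control MDSCs and 107285.6 CPM in bone marrow neutrophils, and none was at 0. Ly6g, the defining surface marker of mouse neutrophils, stood at 61.9, 85.0 and 1154.8 FPKM (fragments per kilobase of gene, scaled to depth) in the same order. Markers of monocytes and macrophages (14 genes) summed to 1089.0, 1015.7 and 598.3 CPM. B cell markers (8 genes) summed to 46.2, 6.76 and 212.2 CPM, T and NK cell markers (11 genes) to 49.2, 17.5 and 146.0 CPM (136.2 CPM of the last from Cd3d alone), dendritic cell markers (8 genes) to 23.3, 6.50 and 13.1 CPM, eosinophil markers (5 genes) to 65.1, 44.2 and 104.4 CPM, and 3 of 4 epithelial markers that were counted to 17.6, 16.3 and 5.68 CPM. Among markers at 0 were Siglech in both MDSC libraries, Cd209a and Ncr1 in alisertib MDSCs, Klrb1c in both MDSC libraries, Epx in control MDSCs and Epcam in bone marrow. In such bulk libraries, fewer cells of a type and less RNA per cell cannot be told apart.

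All 8 genes lie on chromosome 6 (GENCODE M21, GRCm38). Clec4a2, Clec4n, Clec4d and Clec4e belong to the Clec4 cluster between 122921848 and 123289870, and Clec2d, Clec12a and Clec7a lie further along the chromosome between 129180615 and 129472779. Clec5a stands alone at 40574894-40585821 on the minus strand. The 250 bases upstream of the RefSeq start (build GRCm38.p6) are printed below for 4 members that were called in opposite directions between tumour and bone marrow cells: Clec4d and Clec4e, which were higher in tumour cells and have the highest levels there, and Clec4a2 and Clec12a, which were lower. RefSeq held such a window for 7 of the 8 members, and none for Clec4n. Capitals mark matches on either strand to TTNNGNAA, a core motif of C/EBP factors, and to GAGGAA, a core motif of the myeloid factor PU.1. The windows lie at chr6:123261857-123262106 (plus strand, Clec4d), chr6:123289872-123290121 (minus strand, Clec4e), chr6:123122440-123122689 (plus strand, Clec4a2) and chr6:129349994-129350243 (plus strand, Clec12a).
Clec4d: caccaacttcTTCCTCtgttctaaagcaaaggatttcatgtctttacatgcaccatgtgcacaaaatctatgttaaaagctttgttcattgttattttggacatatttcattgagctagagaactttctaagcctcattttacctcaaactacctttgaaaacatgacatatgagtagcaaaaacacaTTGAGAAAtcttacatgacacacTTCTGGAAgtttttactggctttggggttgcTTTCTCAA
Clec4e: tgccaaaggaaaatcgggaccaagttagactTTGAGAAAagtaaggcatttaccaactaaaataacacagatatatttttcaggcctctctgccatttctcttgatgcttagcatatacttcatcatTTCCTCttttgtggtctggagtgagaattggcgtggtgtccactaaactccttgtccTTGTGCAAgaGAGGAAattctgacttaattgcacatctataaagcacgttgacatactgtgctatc
Clec4a2: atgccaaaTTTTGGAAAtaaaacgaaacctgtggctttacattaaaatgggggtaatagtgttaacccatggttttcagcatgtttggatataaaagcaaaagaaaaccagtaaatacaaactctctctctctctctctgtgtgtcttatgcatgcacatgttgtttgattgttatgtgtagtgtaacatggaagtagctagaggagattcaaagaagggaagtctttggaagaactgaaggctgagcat
Clec12a: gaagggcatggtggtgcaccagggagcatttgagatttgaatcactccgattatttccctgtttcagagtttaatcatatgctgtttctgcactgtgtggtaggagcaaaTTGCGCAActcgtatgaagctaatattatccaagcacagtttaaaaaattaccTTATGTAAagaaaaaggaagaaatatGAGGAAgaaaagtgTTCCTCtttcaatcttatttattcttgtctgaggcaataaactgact

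In the Clec4d window the C/EBP motif matched at 3 places, 62 to 55, 39 to 32 and 8 to 1 bases before the start, and the PU.1 motif at 240 to 235. Clec4e held C/EBP matches at 219 to 212 and 66 to 59, and PU.1 matches at 123 to 118 and 56 to 51. Clec4a2 held 1 C/EBP place, 242 to 234 bases before the start, made of 2 overlapping matches, and no PU.1 match. In Clec12a the C/EBP motif matched at 140 to 133 and 87 to 80, and the PU.1 motif at 61 to 56 and 47 to 42. All 4 printed windows hold the C/EBP letters, whereas that of Clec7a, also called higher in tumour cells, holds no match to them. For Clec4a2 and Clec12a the RefSeq start lies 16262 and 7553 bases inside the GENCODE start of the gene. A comparison of first bases near the RefSeq start matched no GENCODE transcript of Clec12a. Starts farther up its window were not fully searched. Over the 7 members with a window, TTNNGNAA occurred in 6 and GAGGAA in 5, against 36.8% and 23.3% of 32851 RefSeq windows of the same length. A consensus motif of NF-kappaB was in 0 of 7 against 17.6% of windows, the AP-1 motif TGANTCA in 1 (Clec12a, at 213 to 207) against 6.75%, and the interferon-stimulated response element in 1 (Clec2d) against 2.98%. Matches of different motifs did not overlap in the 4 printed windows. The RefSeq windows were not matched to those of the receptors in base composition, so these shares cannot show enrichment of a motif. A match describes letters and is not evidence of binding.

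By level per length, the receptors formed a graded series in tumour MDSCs, from 1241.8 FPKM (Clec4d) to 3.17 FPKM (Clec12a) in control MDSCs. Clec4d was the most abundant of the 8 in every library and ranked 17 in alisertib MDSCs, 33 in control MDSCs and 218 in bone marrow neutrophils among all genes by FPKM. The order from high to low in both MDSC libraries was Clec4d, Clec4e, Clec7a, Clec4n, Clec5a, Clec2d, Clec4a2, Clec12a. In bone marrow neutrophils it was Clec4d, Clec7a, Clec4a2, Clec5a, Clec12a, Clec4e, Clec2d, Clec4n. Clec12a and Clec4e were next to each other in that order and did not differ beyond counting error (ratio of FPKM 1.02, 95% interval 0.983 to 1.05), while every other pair of neighbours in the 3 orders did. No spread between animals exists to set against these orders. When CPM was divided instead by the length of the longest coding transcript, an alternative chosen after seeing the data, both MDSC orders stayed and the middle of the bone marrow order became Clec7a, Clec12a, Clec4e, Clec4a2, Clec5a. The lengths differ most for Clec4e (4965 bases of merged exons against 2518 in the transcript) and Clec12a (5528 against 2502).

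**Figure D1:**
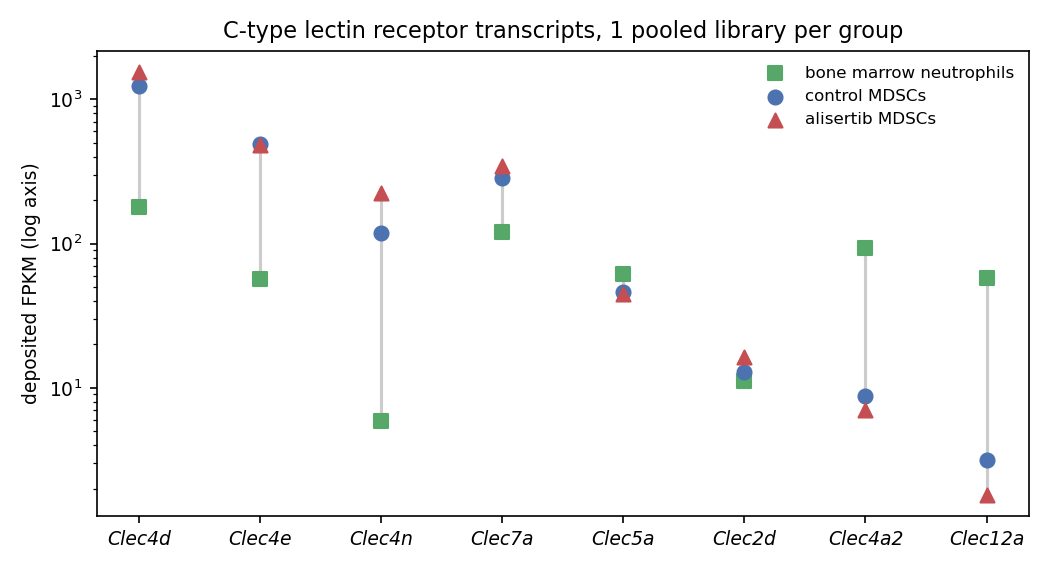
Deposited FPKM (log axis) of the 8 receptor genes, 1 point per pooled library (square, bone marrow neutrophils; circle, control MDSCs; triangle, alisertib MDSCs), with a grey line joining the lowest and highest. Clec4d, Clec4e, Clec4n, Clec7a and, by a small margin, Clec2d have their squares at the bottom, Clec4a2, Clec12a and Clec5a have them at the top, and the circle and triangle of most genes lie close together.

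The first comparison asks how tumour MDSCs of control mice differ from bone marrow neutrophils. A gene was called higher or lower where the bound of its 95% interval nearest to 1 lay beyond a 2-fold difference. The interval is exact for the 2 counts (Clopper-Pearson) and covers counting error only. Of the 8 receptors, 4 were called higher (Clec4d, Clec4e, Clec4n, Clec7a), 2 lower (Clec4a2, Clec12a), and 2 were not called (Clec5a, Clec2d). Over all 13019 genes past the filter, 41.3% were called, 18.3% higher and 22.9% lower, so that a call by itself is common between these libraries. The median log2 ratio of the 8 was 0.74 (range -4.16 to 4.34), against -0.14 over all genes.

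The 3 receptors that couple to the Fc receptor gamma chain had the largest ratios of control MDSCs over bone marrow among the 8. Clec4n, whose product binds fungal mannans, had 196 counts in bone marrow neutrophils, 3359 in control MDSCs and 6837 in alisertib MDSCs, or 5.92, 118.0 and 225.3 FPKM. The lowest of the 8 in bone marrow was thus the fourth highest in tumour MDSCs. Its ratio of control MDSCs over bone marrow was 20.2 (95% interval 17.5 to 23.5; log2 4.34). Clec4e, a receptor for mycobacterial cord factor and for the nuclear protein Sap130 released by dying cells, had 6563, 49164 and 50801 counts in the same order of libraries, or 56.7, 493.8 and 478.7 FPKM. Both tumour libraries were far above bone marrow and close to each other. The ratio of control MDSCs over bone marrow was 8.85 (8.62 to 9.08). Clec4d, which pairs with the Clec4e product at the cell surface, had 6649, 39820 and 52985 counts, or 178.3, 1241.8 and 1550.3 FPKM. Again both tumour libraries were above bone marrow, and the ratio of control MDSCs over bone marrow was 7.07 (6.89 to 7.26).

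Among the other activating receptors the differences were smaller. Clec7a had 7420 counts in bone marrow neutrophils, 15059 in control MDSCs and 19320 in alisertib MDSCs, or 120.6, 284.7 and 342.6 FPKM. Its ratio of control MDSCs over bone marrow was 2.40 (2.33 to 2.47). Scaled by total counts the ratio was 2.03 (1.98 to 2.09), and Clec7a was no longer called. GENCODE M21 classes Clec7a as a polymorphic pseudogene and the other 7 as protein coding, and this was not followed further. Clec5a, which marks myeloid cells and is known for its part in flavivirus infection, had 5551, 3558 and 3677 counts, or 62.0, 46.2 and 44.8 FPKM. Bone marrow held the highest of its values, but the ratio of 0.757 (0.726 to 0.790) did not reach the bound.

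Both receptors with inhibitory motifs stood the other way. Clec12a, a receptor for uric acid crystals that restrains granulocytes, had 7427 counts in bone marrow neutrophils, 351 in control MDSCs and 215 in alisertib MDSCs, or 57.6, 3.17 and 1.82 FPKM. It was 17.9-fold lower in control MDSCs than in bone marrow (16.1 to 20.0). Clec4a2 had 6329, 515 and 442 counts, or 92.7, 8.78 and 7.07 FPKM. It was 10.4-fold lower in control MDSCs (9.51 to 11.4). By FPKM, Clec4a2 ranked 477 among all genes in bone marrow and 3833 in control MDSCs, and Clec12a ranked 833 and 6271. Of 2432 windows of 50 bases in the longest coding transcript of Clec4a2, 8.76% also occur in another gene, most often Clec4a4, so its counts may hold or lose reads of close copies. Clec4a4 itself had 12 counts in bone marrow, 3 in control MDSCs and 5 in alisertib MDSCs.

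Summed by role, the 5 activating receptors (Clec4d, Clec4e, Clec4n, Clec5a, Clec7a) reached 423.4 FPKM in bone marrow neutrophils, 2184.4 in control MDSCs and 2641.7 in alisertib MDSCs. The inhibitory pair, Clec4a2 and Clec12a, summed to 150.3, 11.9 and 8.89 FPKM in the same order. The ratio of the activating to the inhibitory sum was therefore 2.82 in bone marrow, 182.9 in control MDSCs and 297.3 in alisertib MDSCs. With lengths of the longest coding transcripts it was 2.27, 172.2 and 285.0. Ratios of this kind compare genes within 1 library and do not depend on how libraries are scaled to each other. In bone marrow Clec12a and Clec7a had nearly equal counts (ratio 1.001, 0.969 to 1.03), in control MDSCs Clec12a had 0.0233 of the Clec7a count (0.0209 to 0.0259) and in alisertib MDSCs 0.0111 (0.00968 to 0.0127). Clec4a2 had 32.3 times the count of Clec4n in bone marrow and 0.153 and 0.0647 times in control and alisertib MDSCs. Markers of other cells moved between these libraries as well: of 13 monocyte and macrophage markers past the filter, 7 were called higher and 2 lower in control MDSCs than in bone marrow, and of 11 neutrophil markers 8 were called lower. Over all genes past the filter 18.3% were called higher and 22.9% lower. The part of these markers in the receptor differences was not tested.

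Clec2d, which ranked 3478, 3049 and 2449 by FPKM among all genes in bone marrow, control and alisertib libraries, had few counts. It had 317 counts in bone marrow neutrophils, 314 in control MDSCs and 424 in alisertib MDSCs, or 11.2, 12.9 and 16.4 FPKM. The first 2 values cannot be separated at this depth (ratio 1.17, 0.998 to 1.37), and the log2 ratio changed sign, to -0.01, when total counts were used. Lymphocytes also express Clec2d, and all 8 B cell markers were called lower in control MDSCs than in bone marrow, while of 9 T and NK cell markers past the filter 2 were called higher and 2 lower. Over all genes past the filter 18.3% were called higher and 22.9% lower. The part of lymphocytes was not tested. Klrb1b, the gene of its receptor, had 0 counts in bone marrow and 2 in each MDSC library, at or under the 3 counts that a library at 0 allows. Sap130, the gene of the Clec4e ligand, had 1015, 660 and 793 counts in bone marrow, control and alisertib libraries and was not called in any comparison.

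**Figure D2:**
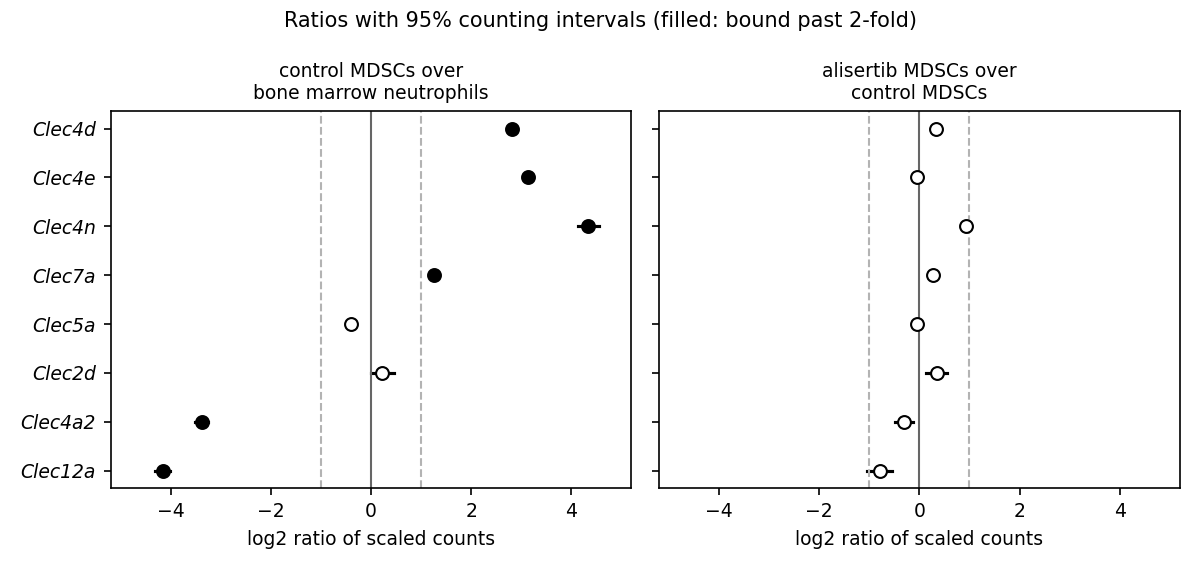
Log2 ratio of scaled counts for each receptor gene, control MDSCs over bone marrow neutrophils (left) and alisertib over control MDSCs (right), with bars for 95% counting intervals, dashed lines at a 2-fold difference and filled points for called genes. On the left 6 of 8 points are filled, from -4.16 (Clec12a) to 4.34 (Clec4n), and on the right none is, with Clec4n the farthest from 0 at 0.94.

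The second comparison, alisertib over control MDSCs, is the one the study's title names. None of the 8 receptors was called (0 higher, 0 lower), where 2.98% of all genes past the filter were, 1.8% higher and 1.18% lower. The log2 ratios lay between -0.79 and 0.94 with a median of 0.12, against 0.00 over all genes, and 4 were above 0 and 4 below. Clec4n had the greatest ratio, 1.92 (1.84 to 1.997), just short of the bound, from 3359 to 6837 counts. With total counts it was 2.31 (2.21 to 2.41) and was called. The count of Clec4n relative to that of its neighbour Clec4e, which needs no scaling between libraries, was 0.0299 (0.0258 to 0.0344) in bone marrow, 0.0683 (0.0660 to 0.0708) in control MDSCs and 0.135 (0.131 to 0.138) in alisertib MDSCs. These intervals cover counting error only and do not overlap. Since Clec4n was picked here for its greatest ratio, the separation is no added support for a difference. Relative to Clec4d, Clec4n stood at 0.0295, 0.0844 and 0.129.

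At the other end, Clec12a was 1.74-fold lower in alisertib MDSCs (1.46 to 2.07), from 351 to 215 counts, and Clec4a2 had a ratio of 0.808 (0.710 to 0.919). Neither passed the bound. Clec4d and Clec7a had ratios of 1.25 (1.24 to 1.27) and 1.21 (1.18 to 1.23), and Clec2d of 1.27 (1.096 to 1.48). Clec4e and Clec5a were nearest to 1, at 0.972 (0.960 to 0.985) and 0.973 (0.928 to 1.02). Both of these changed sign with total counts, each to a ratio of 1.17 (log2 0.23), a scaling that moves the median of all genes by 0.27. Unequal change within the pair Clec4d and Clec4e is free of scaling: Clec4d had 0.810 of the Clec4e count in control MDSCs (0.799 to 0.821) and 1.04 in alisertib MDSCs (1.03 to 1.06). Whether such differences exceed the spread between mice or pools cannot be said from 1 library per group. Among the markers, 6 of 8 for B cells, 6 of 9 past the filter for T and NK cells and 1 of 6 for dendritic cells were called higher in alisertib MDSCs, 7 of 11 for neutrophils were called lower, and none of 13 for monocytes and macrophages was called. Over all genes past the filter 1.8% were called higher and 1.18% lower. The part of these markers in the receptor ratios was not tested.

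Set against the same bone marrow library, alisertib MDSCs gave 4 receptors called higher, 2 lower and 2 not called, where 41.0% of all genes were called, 18.7% higher and 22.3% lower. Since this comparison shares the bone marrow library with the first, its values are given beside the others and not as a second line of support. Clec4n was 38.8 times the bone marrow level (33.6 to 44.9), Clec4d 8.86 times (8.63 to 9.09), Clec4e 8.60 times (8.38 to 8.83) and Clec7a 2.89 times (2.82 to 2.97). Clec12a was 31.1-fold lower (27.1 to 35.8) and Clec4a2 12.9-fold lower (11.7 to 14.2). Clec5a and Clec2d, the uncalled pair, had ratios of 0.736 (0.706 to 0.768) and 1.49 (1.28 to 1.73). The median log2 ratio of the 8 was 1.05, against -0.10 over all genes.

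Along the Clec4 cluster, genes higher and lower in tumour MDSCs lay in separate stretches. The annotation lists 13 genes in its 368.0 kb, of which 10 were counted and 7 passed the filter. Clec4n (123229843-123247021, plus strand), Clec4d (123262111-123275265, plus strand) and Clec4e (123281789-123289870, minus strand) are the last 3 of the cluster, span 60028 bases, and were the only 3 of the 10 counted genes with a log2 ratio above 0 in control MDSCs over bone marrow. Clec4d and Clec4e face each other, with their 3′ ends 6523 bases apart, and Clec4n ends 15089 bases before Clec4d starts. The other 7 counted genes were below 0. Under the filter were Clec4a4 (3 counts in control MDSCs and 12 in bone marrow), Clec4b1 (0 and 11) and Gm44132 (0 and 7). Past it, Clec4a2 (123106428-123143999, plus strand), Clec4a3 (56 counts in control MDSCs and 215 in bone marrow) and Clec4b2 (21 and 84 counts) were called lower, and Clec4a1 (49 and 114 counts) was not. In alisertib MDSCs over bone marrow Clec4a2 and Clec4b2 were called lower, and Clec4a3 and Clec4a1 were not called. In control MDSCs over bone marrow 18.3% of all genes past the filter were called higher and 22.9% lower. Clec4a2 ends 85843 bases before Clec4n. In alisertib over control MDSCs none of the 7 genes past the filter was called, where 2.98% of all such genes were.

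The region from Clec2d to Clec7a was mixed. It holds 13 annotated genes in 292.2 kb, of which 11 were counted and 9 passed the filter. In control MDSCs over bone marrow, Clec7a (129461591-129472779, minus strand) and its neighbour Clec1a (114 and 25 counts; ratio 5.39, 3.47 to 8.67) were called higher. Clec12a (129342691-129365303, plus strand) and Clec1b (41 and 140 counts), the receptor for podoplanin known from platelets, were called lower. Clec2d (129180615-129186534, plus strand), Cd69, Clec12b, Clec9a and the non-coding 2310001H17Rik were not called. Over all genes past the filter 18.3% were called higher and 22.9% lower. No exon of a member overlapped another annotated gene. Only Clec4a2 held one in its introns, the pseudogene Gm44132, with 7 counts in bone marrow, 0 in control MDSCs and 3 in alisertib MDSCs.

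**Figure D3:**
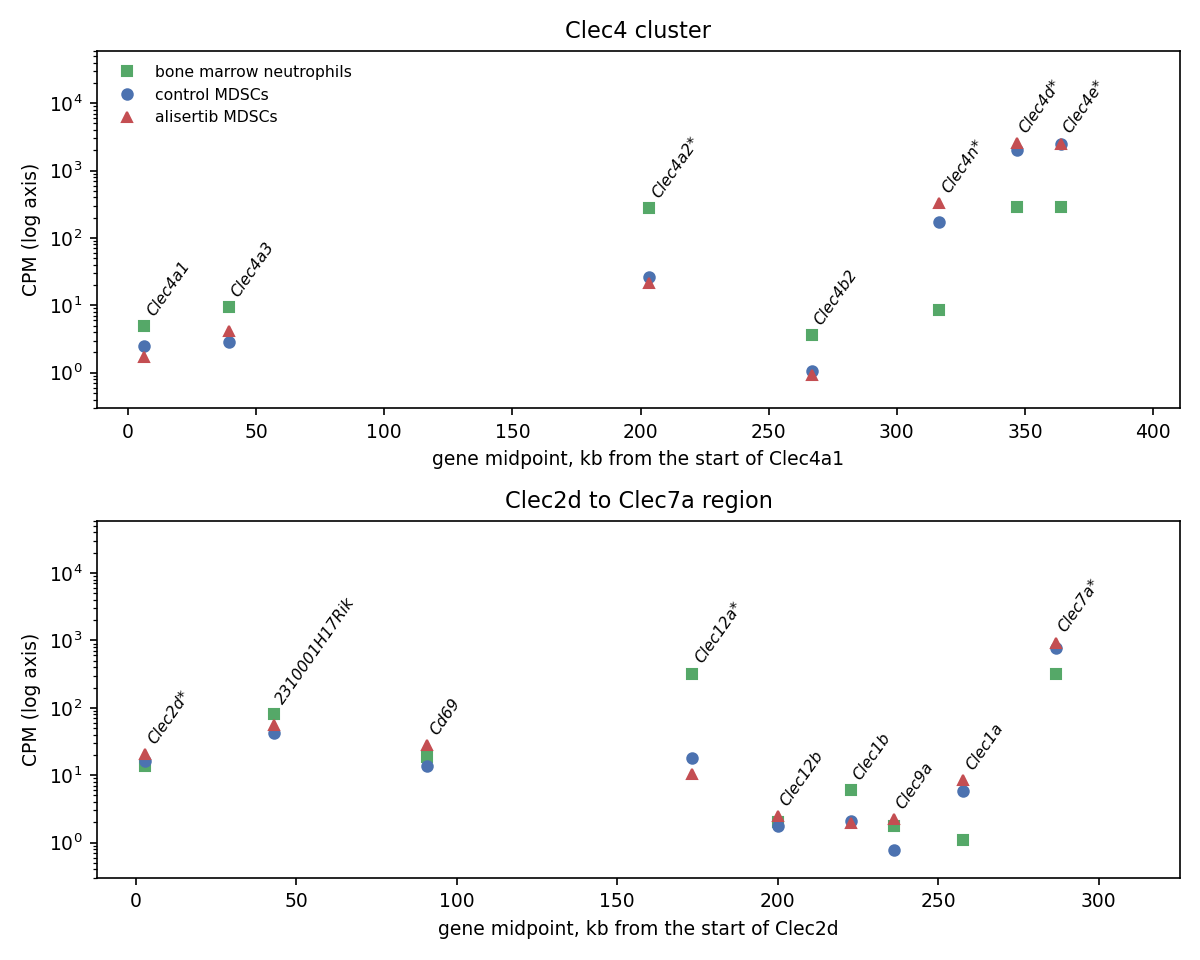
CPM (log axis) of the genes past the filter in the Clec4 cluster (top) and in the region from Clec2d to Clec7a (bottom), placed by gene midpoint in kb from the first gene, with 1 point per library and asterisks on the receptor genes described. At the right end of the cluster the squares of bone marrow lie under the tumour points for Clec4n, Clec4d and Clec4e, and to the left of them they lie above.

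Of 48 other C-type lectin genes listed, 36 were counted and 26 passed the filter. In control MDSCs over bone marrow 3 were called higher (Clec1a, Cd302 and Cd93) and 10 lower, with a median log2 ratio of -0.56. Cd93, named after its values were seen, had 738 counts in bone marrow and 1604 in control MDSCs (ratio 2.57, 2.35 to 2.80), and was not called with total counts. The median moved with scaling from -0.79 (total counts) to -0.27 (upper quartile), and the calls from 2 higher and 10 lower to 4 higher and 5 lower. Cd302, an endocytic lectin, had 44 counts in bone marrow, 223 in control MDSCs and 310 in alisertib MDSCs (ratio of control over bone marrow 5.99, 4.32 to 8.47). Ly75, the endocytic receptor known as DEC-205, had 4238, 187 and 199 counts and was 19.2-fold lower in control MDSCs (16.6 to 22.3). Cd207, the langerin gene of Langerhans cells, had 139 counts in bone marrow and 0 in both MDSC libraries, at least 39.2-fold lower in control MDSCs when the latter is set to 3 counts. Cd72, an inhibitory receptor of B cells, had 210, 41 and 117 counts and was 4.34-fold lower in control MDSCs (3.09 to 6.22). Between the MDSC libraries 1 of the 26 was called, against 2.98% of all genes past the filter. This was Fcer2a, the IgE receptor of B cells, with 61 counts in bone marrow, 3 in control MDSCs and 38 in alisertib MDSCs. Its ratio of alisertib over control was 11.9 (3.78 to 60.4). Fcer2a was among the genes called lower in control MDSCs than in bone marrow. In alisertib MDSCs over bone marrow it was not called (ratio 0.692, 0.449 to 1.055). B cell markers were also higher in alisertib than in control MDSCs, and their part was not tested.

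The adaptor genes Fcer1g, Tyrobp and Hcst, which serve the products of Clec4d, Clec4e, Clec4n and Clec5a, were not called in any comparison. Fcer1g had 8778 counts in bone marrow neutrophils, 9867 in control MDSCs and 9144 in alisertib MDSCs, or 430.6, 563.0 and 489.5 FPKM, and ratios of 1.33 (control over bone marrow) and 0.872 (alisertib over control). Clec4d, Clec4e and Clec4n together summed to 240.9, 1853.5 and 2254.2 FPKM, below Fcer1g in bone marrow and above it in both MDSC libraries. Tyrobp had 916.4, 827.7 and 647.8 FPKM and Hcst 61.9, 39.3 and 28.0 FPKM, with ratios of control over bone marrow of 0.917 and 0.644. In alisertib MDSCs Hcst was 2.17-fold lower than in bone marrow (1.94 to 2.44), its lower bound short of 2-fold. Syk had 22624, 46510 and 39367 counts and was called higher in control MDSCs than in bone marrow (2.43, 2.39 to 2.47).

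Of the 14 adaptors and kinases listed, 2 were called higher in control MDSCs than in bone marrow (Syk and Src), 2 lower (Plcg2 and Pik3cd) and 10 not, with a median log2 ratio of -0.38. Over all genes past the filter 18.3% were called higher and 22.9% lower. Src had 6 counts in bone marrow and 546 in control MDSCs (ratio 107.5, 49.1 to 294.1). Plcg2, the phospholipase downstream of Syk, had 9093 and 1218 counts and was 6.32-fold lower (5.95 to 6.72). Pik3cd, a subunit of phosphoinositide 3-kinase, had 8931 and 555 counts and was 13.6-fold lower (12.5 to 14.9). In the Card9 complex, Malt1 (1775 and 5165 counts; ratio 3.44) and Traf6 (1089 and 3630 counts; ratio 3.94) were called higher, Card9 itself (3719 and 1209 counts) 2.61-fold lower, and Bcl10 (4467 and 3866 counts) was not called. Ptpn6, the phosphatase recruited by the inhibitory receptors, had 11681 counts in bone marrow, 1230 in control MDSCs and 1104 in alisertib MDSCs and was 8.04-fold lower in control MDSCs (7.58 to 8.54). It was the only 1 of 4 listed inhibitory genes called in that comparison.

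Between alisertib and control MDSCs, 0 of 14 adaptors and kinases and 0 of 4 genes of the Card9 complex were called, with median log2 ratios of -0.30 and -0.45. Of all genes past the filter 2.98% were called. Card9 had 745 counts in alisertib MDSCs, 1.73-fold fewer after scaling (1.57 to 1.89), and Syk a ratio of 0.797 (0.786 to 0.807). Cblb, a ubiquitin ligase known to restrain signalling by Dectin-1 and Dectin-2, was called higher, with 239 counts in bone marrow, 103 in control MDSCs and 603 in alisertib MDSCs (ratio of alisertib over control 5.51, 4.46 to 6.86). It was the only called gene of the 4 on its list. Cblb is also known from T cells, whose markers were higher in the same library, and their part was not tested.

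Genes known as products of Syk and Card9 signalling were mostly higher in tumour MDSCs. Of 17 listed, 16 were counted and 15 passed the filter, and 12 of these were called higher and 1 lower in control MDSCs than in bone marrow, with a median log2 ratio of 2.65. Over all genes past the filter 18.3% were called higher and 22.9% lower. The chemokine gene Cxcl2 had 7181 counts in bone marrow, 242230 in control MDSCs and 292826 in alisertib MDSCs (ratio of control over bone marrow 39.8, 38.9 to 40.8), and Ccl3 had 3483, 44672 and 58933 (15.2, 14.6 to 15.7). Il23a, a subunit of interleukin 23, had 7, 260 and 450 counts (43.9, 21.0 to 110.2). Tnf had 1125, 5982 and 8557 counts (6.28, 5.89 to 6.70), and Tnfaip3, a brake on NF-kappaB, had 3101, 27220 and 23338 (10.4, 9.99 to 10.8). Il10 had 1 count in bone marrow against 403 in control MDSCs, so that its ratio of 475.9 has an interval of 84.9 to 18844.6. Il6, named after its values were seen, was the 1 called lower, with 212 counts in bone marrow and 29 in control MDSCs (6.19-fold, 4.19 to 9.47). Many other pathways drive these genes, and no value here ties them to the receptors. Between alisertib and control MDSCs none of the 15 was called, where 2.98% of all genes were, and the median of -0.07 turned to 0.20 with total counts.

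For the motifs marked in capitals, the listed factor genes were Cebpb, of the C/EBP factors, and Spi1. Other C/EBP genes and the factors of the other motifs were not on this list. In control MDSCs over bone marrow the ratios of Cebpb and Spi1 lay on opposite sides of 1, and only Cebpb was called. Cebpb had 8977 counts in bone marrow neutrophils, 53084 in control MDSCs and 31271 in alisertib MDSCs. It was called higher in control MDSCs than in bone marrow (6.98, 6.83 to 7.14), and its ratio of alisertib over control was 0.554 (0.547 to 0.562), not past the bound. Spi1, the gene of PU.1, had 16685, 9282 and 7390 counts, and ratios of 0.657 and 0.749, and was not called in any comparison.

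**Figure D4:**
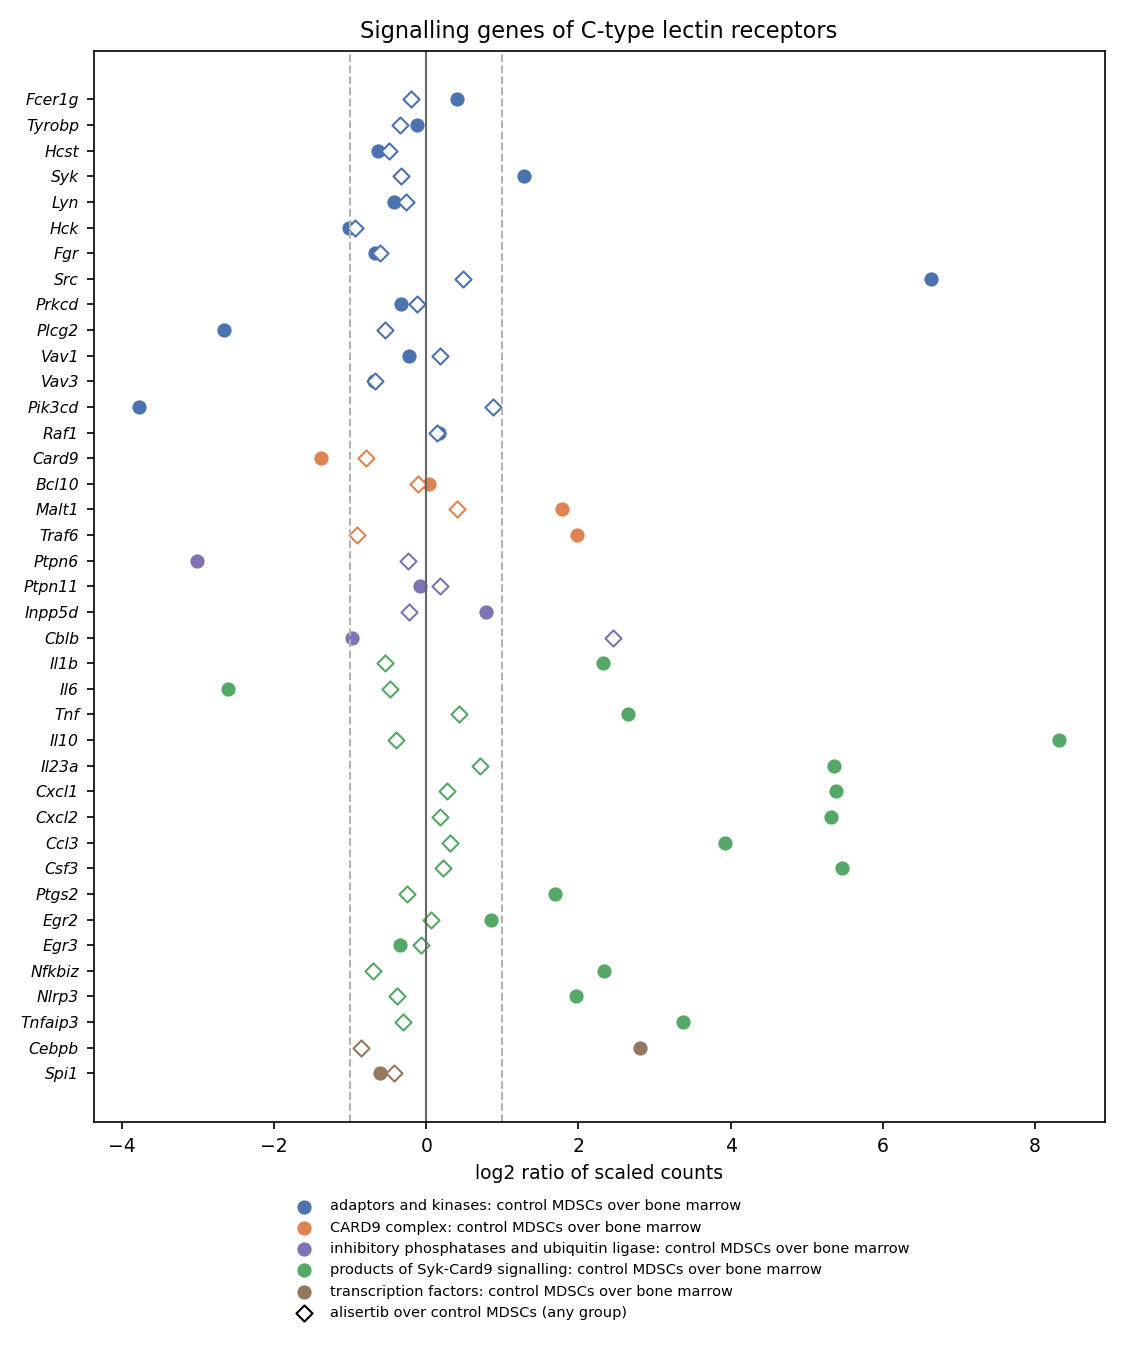
Log2 ratios of scaled counts for genes of C-type lectin receptor signalling, filled circles for control MDSCs over bone marrow neutrophils, coloured by list, and open diamonds for alisertib over control MDSCs, with dashed lines at a 2-fold difference and no error bars. Most products (green circles) lie right of the dashed line with Il6 far to the left, and Cblb is the diamond farthest from 0.

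The genes closest to each receptor were found by distance in the 2 log2 ratios (control over bone marrow, alisertib over control) among 7345 genes at 10 CPM or more in at least 1 library. With 3 libraries this measures likeness in 2 numbers only. Closest to Clec4e was Relb, a subunit of NF-kappaB, at a distance of 0.03, with 402, 3074 and 3171 counts in bone marrow, control and alisertib libraries. Closest to Clec4d were Slc31a1, a copper transporter gene, at 0.08 and Oasl2 at 0.10. Clec4n had the sparsest surroundings, with Zfp651 at 0.16 and Tedc2 at 0.40. Rab27a, a regulator of granule release, was closest to Clec12a at 0.09, followed by Ccdc63 at 0.21, and Rps6ka1 and Mrpl19 were closest to Clec4a2, both at 0.06. Clec7a was nearest to the splicing factor gene Srsf2 (0.02) and to Man1a (0.03), Clec5a to Ppp2r5b (0.01) and Dcun1d5 (0.02), and Clec2d to Ahcyl1 (0.00) and Timm23 (0.01). The other gene near Clec4e was Olfr372, at 0.06.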

How the data were processed

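RNA from 3 pooled sorts was sequenced, 1 library per group. The authors deposited raw counts per gene and FPKM values. Sorting on a FACSAria, Trizol extraction and NEBNext Ultra libraries are given per the labels' protocols. Per the submitters' processing notes, the tools included CASAVA 1.8 and STAR 2.5.1b and the builds mm9 and mm10, with no role stated. How reads were counted, and on which annotation and strand, is not given in the sources used here.

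Comparisons used the counts, scaled by TMM (edgeR 4.0.16, R 4.3.3; factors 1.07148 alisertib, 0.88952 control, 1.0492 bone marrow). Genes at 1 CPM or more in 1 library or more were kept (13019 of 19723). Log2 ratios had 0.5 added to each count. Intervals are Clopper-Pearson at 95%, cover counting error only, and treat reads as independent molecules although no molecular identifiers are named. Without replicates no p-value was computed, and values describe these libraries. A library at 0 was given a floor of 3 counts. FPKM values, which the authors deposited, were used for levels and for the alternatives named below. FPKM was missing for 550 counted genes, none a receptor. Symbols (19648 genes) and positions came from GENCODE M21, promoters from RefSeq. Alternatives were total counts, DESeq2 1.42.0 and upper-quartile factors, FPKM plus 1 or 0.1, 2 added, a bound of 1.5-fold, and filters of none or 10 CPM. The interval rule was also run on simulated counts with counting error alone and known library sizes. That run says nothing of scaling or of spread between pools. Genes named were the 8 receptors, called members of each list (at most 8 by bound), fixed signalling genes, 2 nearest-pattern genes per receptor and cluster genes by position. Receptors and lists were chosen with earlier results of these data known. One gene that met this rule is not reported here.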

Additional observations from a re-analysis of the deposited data

How the results depend on the processing

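With 1 library per group nothing could be left out, and depth limits only the genes with few counts, such as Clec2d. No paired analysis was possible because each group holds 1 library. Control MDSCs over bone marrow gave 6 receptors called under every alternative run except total counts (5, without Clec7a). For alisertib over control MDSCs, 1 receptor in place of 0 was called, and called higher, with total counts and with a bound of 1.5-fold, in both cases Clec4n. Genes called over the whole table numbered 3520 at 10 CPM against 5371 (control over bone marrow) and 3507 against 5344 (alisertib over bone marrow). For alisertib over control they numbered 191 at 10 CPM and 1257 at 1.5-fold against 388. A filter of 10 CPM tests fewer genes. Of the genes called in that comparison, the higher ones made up 60.3%, and 84.0% with total counts, 34.6% at 10 CPM and 49.1% at 1.5-fold. For control over bone marrow it was 44.4%, and 35.6% with total counts. Of 144 receptor log2 ratios under the 6 alternatives that can move them, 98 stayed within their counting interval and 46 moved beyond it. No called ratio changed sign, while the uncalled ratios of Clec2d (control over bone marrow) and of Clec4e and Clec5a (alisertib over control) did with total counts. Total counts moved the median log2 ratio of all genes by -0.24 (control over bone marrow) and 0.27 (alisertib over control), and upper-quartile factors by 0.28 (control over bone marrow) and 0.28 (alisertib over bone marrow).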
